A study of Mus musculus with 4 samples.

Results

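The genes described here are 10 genes of the calcium-calcineurin-NFAT pathway, chosen by name because ionomycin, an agent given to one of the cultures, is expected to act through them. They are the calcium sensors Stim1 and Stim2, the calcium channel Orai1, the calcineurin subunits Ppp3ca, Ppp3cb, and Ppp3r1, the calcineurin inhibitor Rcan1, and the transcription factors Nfatc1, Nfatc2, and Nfatc3. These are 10 of the 31053 genes in the feature table, and each was found under its own symbol. They were measured by scRNA-Seq in B cells purified from the spleens of WT C57BL/6 mice and cultured as 2 replicates each of Bregs-CpG and Bregs-TLR. Bregs-CpG were kept with CpG ODN 1668, a TLR9 agonist, for 3 days. Bregs-TLR had the same CpG culture and in addition LPS, PMA, and ionomycin during the last 5 hours. All 4 samples were therefore exposed to CpG, and ionomycin was never given without LPS and PMA. The cell barcodes number 4 libraries (5, 6, 7, and 8) but name no sample, so no library could be tied to either culture. The cells were treated as 1 pooled sample, each library's value is given, and no difference between the cultures was tested.

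Ionomycin carries calcium across membranes and empties calcium stores. When the store of the endoplasmic reticulum empties, STIM proteins in its membrane open ORAI channels in the plasma membrane, and the calcium that enters binds calmodulin and activates the phosphatase calcineurin. Calcineurin removes phosphate from NFAT proteins, which then move into the nucleus and, often together with AP-1, bind the promoters of cytokine and early response genes. In B cells the same route is opened by the antigen receptor through phospholipase Cγ2. Because this route is switched by calcium and phosphate, mRNA levels measure the abundance of its parts and not its activity.

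After removal of cells with fewer than 1000 genes or at least 10% mitochondrial UMIs (unique molecular identifiers, each standing for 1 captured mRNA), 4196, 4714, 5621, and 4003 cells remained in libraries 5, 6, 7, and 8 (18534 in all), from 4604, 5162, 5892, and 4262 deposited. They held between 44842982 and 63638158 UMIs per library, and the median cell had 8752 to 10355 UMIs. Mitochondrial genes took a median of 7.22% and 7.18% in libraries 5 and 6 and 4.61% and 4.65% in libraries 7 and 8. A set of 29 barcode sequences occurred in more than one library. B cell identity was checked with Cd79a, Cd79b, Ms4a1, and Pax5, which were detected in every library. Cd79a was at 3072, 3239, 1057, and 1033 CPM (counts per 1000000 UMIs of the library) in libraries 5, 6, 7, and 8, and Pax5 at 174.0, 182.7, 60.8, and 60.3 CPM. Of 7 plasma cell genes, the 6 with at least 20 UMIs over the 4 libraries summed to 1614, 1779, 389.8, and 339.3 CPM. Of this sum Mzb1 alone gave 1441, 1548, 154.3, and 156.7 CPM, while Sdc1 was at 0.201, 0.213, 7.45, and 6.15 CPM. The 4 proliferation genes summed to 240.5, 268.0, 314.8, and 305.3 CPM, with Mki67 at 58.5, 70.0, 29.1, and 31.4 CPM and Mcm3 at 48.1, 51.8, 144.0, and 130.0 CPM. Of 7 T and NK cell markers, 5 had no UMI (Cd3e, Cd4, Cd8a, Ncr1, and Klrb1c). Only Cd3d had at least 20 UMIs, and it lay between 0.0943 and 0.194 CPM. Of 8 myeloid and dendritic cell markers, Lyz2, S100a8, S100a9, and Siglech had no UMI. The 2 with at least 20 UMIs, Itgam and Flt3, summed to 5.999, 7.81, 0.864, and 0.657 CPM. Of 6 red cell and platelet markers, Hba-a1, Hba-a2, and Ppbp had no UMI, while Hbb-bt alone gave 4.57, 4.30, 218.0, and 284.7 CPM. Whether genes were removed before deposit was not tested, so a marker listed at 0 is no check of purity. The part of these cell type and depth differences in the results was not tested.

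Over all cells, Ppp3ca, the α isoform of the catalytic calcineurin A subunit, was the most abundant of the 10 genes at 130.7 CPM, rank 887 of all genes. The chemistry tags each mRNA once near its 3′ end, so these levels were not divided by gene length. Ppp3cb (43.9 CPM), Ppp3r1 (35.4 CPM), Orai1 (33.5 CPM), Nfatc3 (32.6 CPM), Stim1 (29.6 CPM), and Nfatc1 (22.6 CPM) followed. Stim2 (10.7 CPM), Rcan1 (4.55 CPM), and Nfatc2 (1.85 CPM, rank 9705) were the lowest. In this order, the library values of Ppp3ca lay above those of Ppp3cb, those of Ppp3cb above those of Ppp3r1, those of Stim2 above those of Rcan1, and those of Rcan1 above those of Nfatc2. Neighbors from Ppp3r1 down to Stim2 overlapped between libraries and are not ordered.

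**Figure D1:**
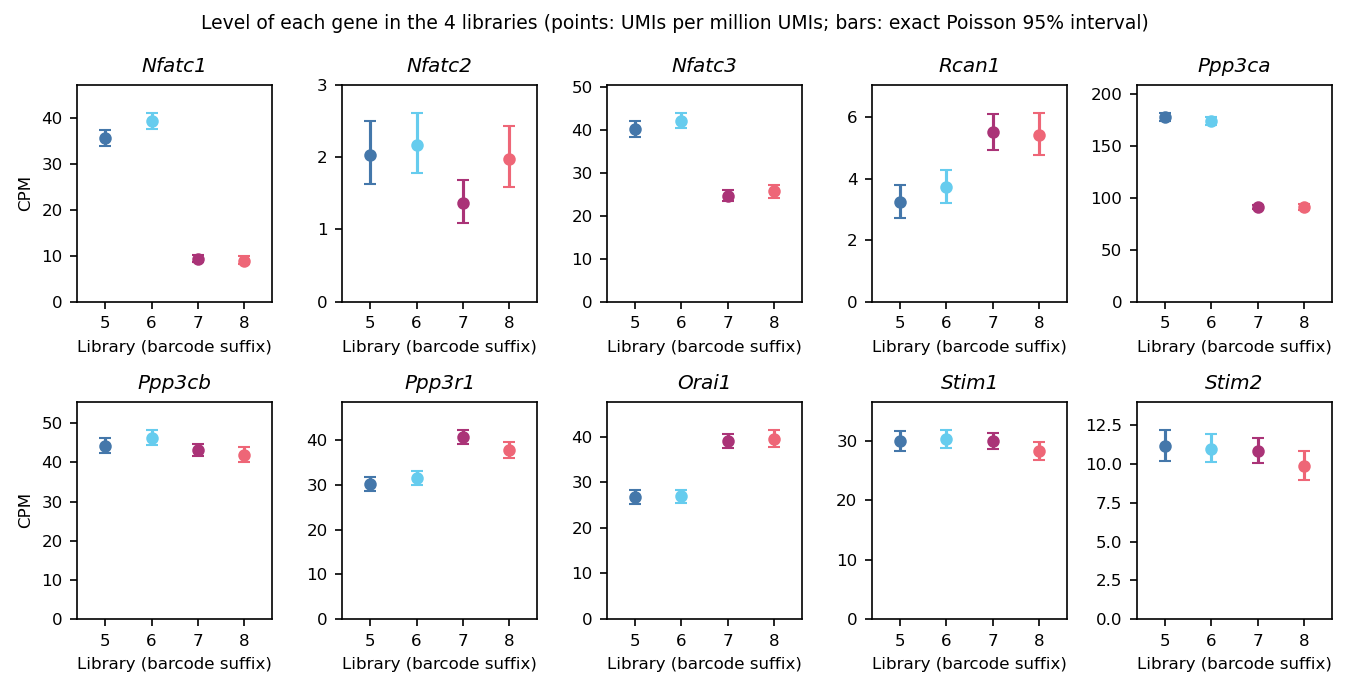
Level of each of the 10 genes (CPM, linear axes from 0 that differ between panels) in libraries 5 to 8; points are values and bars exact Poisson 95% intervals. Nfatc1 was 35.6 and 39.5 CPM in libraries 5 and 6 against 9.37 and 8.999 CPM in libraries 7 and 8, while Stim1 lay between 28.3 and 30.2 CPM in all 4.

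The calcium sensors were at nearly the same level in every library. Stim1, the main sensor of store depletion, was at 29.9, 30.2, 29.9, and 28.3 CPM in libraries 5, 6, 7, and 8. Stim2, which answers to smaller losses of store calcium, was at 11.2, 11.0, 10.9, and 9.85 CPM. The highest library exceeded the lowest by 1.07-fold for Stim1 and 1.13-fold for Stim2, and the exact 95% interval of the log2 ratio included 0 in each of the 6 pairs of libraries for both. The widest of these intervals reached from -0.37 to 0.01 (Stim2, library 8 over 5). Without mitochondrial, ribosomal protein, and immunoglobulin genes in the total, the log2 ratio of 7 over 5 was -0.19 for Stim1 and -0.23 for Stim2. Both lay outside the intervals used here for that pair (-0.10 to 0.10 and -0.21 to 0.13). Intervals throughout cover counting error only and no variation between mice or cultures. Stim1 made up 72.8%, 73.3%, 73.3%, and 74.2% of the UMIs of both sensors.

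Orai1, the pore subunit of the store-operated channel, differed between libraries. It was at 26.7 and 26.9 CPM in libraries 5 and 6 and at 39.1 and 39.6 CPM in libraries 7 and 8, so that the former pair lay below the latter without overlap. The log2 ratio was 0.55 (95% interval 0.45 to 0.65) for library 7 over 5 and 0.57 (0.46 to 0.67) for 8 over 5. Against library 6 it was 0.54 (0.44 to 0.64) in library 7 and 0.56 (0.45 to 0.66) in library 8. Within 6 over 5 and 8 over 7 it was 0.01 and 0.02, with intervals that included 0.

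The other ORAI channels, whose levels are given for the shares, went the other way. Orai3 was at 30.9, 32.4, 21.1, and 20.1 CPM, and Orai2 at 9.97, 11.3, 3.87, and 3.57 CPM. The 3 genes together gave 67.6, 70.6, 64.1, and 63.3 CPM. Orai1 thus took 39.5% (Clopper-Pearson 95% interval 37.8 to 41.3) and 38.1% (36.6 to 39.7) of ORAI UMIs in libraries 5 and 6, where Orai3 was ahead with 45.7% and 45.9%. In libraries 7 and 8 Orai1 was ahead with 61.0% (59.5 to 62.5) and 62.5% (60.7 to 64.3), and Orai2 held 6.03% and 5.64%, against 14.7% and 15.9% in libraries 5 and 6.

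**Figure D2:**
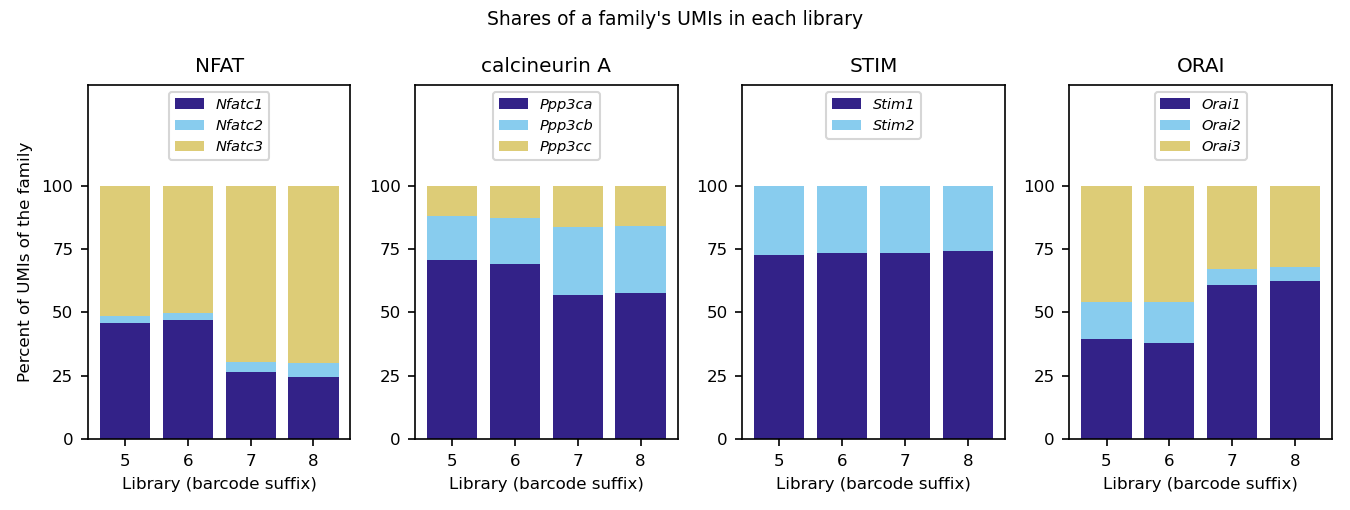
Share of a family's UMIs (percent, linear axis) held by each gene in libraries 5 to 8, for the NFAT, calcineurin A, STIM, and ORAI genes. Nfatc3 held 51.6% and 50.3% of NFAT UMIs in libraries 5 and 6 and 69.6% and 70.1% in libraries 7 and 8, and Stim1 held between 72.8% and 74.2% of STIM UMIs in all 4.

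Among the calcineurin subunits, Ppp3ca had the largest difference. Ppp3ca (ENSMUSG00000028161, chr3:136670124-136937727 on GRCm38, plus strand) was at 177.6 and 173.8 CPM in libraries 5 and 6 and at 91.1 and 91.2 CPM in libraries 7 and 8. The log2 ratio was -0.96 for libraries 7 and 8 over 5 (intervals -1.01 to -0.91 and -1.02 to -0.91). Over library 6 it was -0.93 for both (-0.98 to -0.89 and -0.98 to -0.88). Ppp3ca therefore lay just inside the 2-fold limit used here to call a difference, and it passed that limit in 3 of the 4 pairs under other scalings of the libraries and in all 4 when mitochondrial, ribosomal protein, and immunoglobulin genes were left out of the total.

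Ppp3cb, the β isoform of the same subunit, was at 44.3, 46.4, 43.1, and 41.9 CPM. Its log2 ratio reached at most -0.15 (-0.23 to -0.06, library 8 over 6), and the interval also excluded 0 for 7 over 6 (-0.10). Ppp3cc, the third isoform, was at 29.8, 31.6, 25.8, and 25.1 CPM. As a result Ppp3ca held 70.6%, 69.0%, 56.9%, and 57.6% of the catalytic subunit UMIs, and Ppp3cb 17.6%, 18.4%, 26.9%, and 26.5%. The 3 isoforms together gave 251.6, 251.8, 160.0, and 158.2 CPM.

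Ppp3r1, the regulatory B subunit that binds calcium, differed in the opposite direction to Ppp3ca. It was at 30.2, 31.5, 40.7, and 37.8 CPM, with both of libraries 7 and 8 above libraries 5 and 6. Its log2 ratio was 0.43 (0.33 to 0.53) for 7 over 5, 0.32 for 8 over 5, 0.37 for 7 over 6, and 0.26 (0.16 to 0.36) for 8 over 6. Libraries 7 and 8 also differed from each other, by -0.11 (-0.20 to -0.02, 8 over 7). Ppp3r1 (chr11:17159263-17200375) overlaps Wdr92 on the same strand in the annotation, and how reads shared by both were counted was not tested.

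Rcan1, a feedback inhibitor that binds calcineurin and is itself known as a calcineurin target, was scarce. It gave 145, 193, 351, and 248 UMIs in libraries 5, 6, 7, and 8, or 3.23, 3.74, 5.52, and 5.43 CPM. Libraries 7 and 8 lay above libraries 5 and 6. On the log2 scale the ratio was 0.77 (0.49 to 1.06) for 7 over 5 and 0.75 (0.45 to 1.05) for 8 over 5. Over library 6 it was 0.56 (0.30 to 0.82) and 0.54 (0.26 to 0.82). The low count makes these intervals wide.

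Rcan1 (ENSMUSG00000022951) lies at chr16:92391953-92470867 on the minus strand of GRCm38. It has an upstream start and an internal start, and the internal one is known to give the calcineurin-inducible form. Both forms share the 3′ end that was counted, so the UMIs do not tell which start was used. The 250 bases before each start are shown because they differ in the letters GGAAA, the core that NFAT proteins bind. They are RefSeq sequence, 5′ to 3′ along the gene, upstream start at chr16:92466170-92466419 and internal start at chr16:92400079-92400328 (GRCm38.p6, minus strand). Capitals mark GGAAA on either strand and TGANTCA, the AP-1 motif.
Rcan1 upstream start: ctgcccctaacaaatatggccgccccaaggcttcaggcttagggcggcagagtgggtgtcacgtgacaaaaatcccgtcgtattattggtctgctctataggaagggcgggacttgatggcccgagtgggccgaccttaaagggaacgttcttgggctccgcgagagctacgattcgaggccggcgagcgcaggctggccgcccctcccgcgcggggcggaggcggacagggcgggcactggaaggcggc
Rcan1 internal start: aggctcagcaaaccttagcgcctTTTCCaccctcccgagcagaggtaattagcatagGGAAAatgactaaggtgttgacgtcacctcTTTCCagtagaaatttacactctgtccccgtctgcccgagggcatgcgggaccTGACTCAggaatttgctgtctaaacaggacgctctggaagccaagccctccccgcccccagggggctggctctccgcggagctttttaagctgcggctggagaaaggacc

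The window before the internal start held 3 GGAAA matches, whose first bases lay 227, 193, and 163 bases before the start, and 1 TGANTCA match 110 bases before it, none of which overlapped. The window before the upstream start held none of either. Among 32851 RefSeq promoter windows of the same length, 55.6% held at least 1 GGAAA, 6.39% held at least 3, and 6.75% held TGANTCA. A match is a description of the letters and was not tested as a binding site. Windows were taken for 8 of the 10 genes (11 windows). Ppp3ca had no entry, and chromosome 18, which holds Nfatc1, was left out of the search for the 10 genes. One window each of Nfatc2 and Ppp3cb also held 3 GGAAA, and those of Orai1, Stim1, Stim2, and Ppp3r1 held none.

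Nfatc1 differed most of the 10 genes. It is an NFAT protein that lymphocytes can induce on activation. Nfatc1 (ENSMUSG00000033016) gave 1598 UMIs in library 5, 2037 in library 6, 596 in library 7, and 411 in library 8. Its level was 35.6 and 39.5 CPM in libraries 5 and 6 and 9.37 and 8.999 CPM in libraries 7 and 8, 4.38-fold apart between the highest and the lowest. The log2 ratio was -1.93 (-2.07 to -1.79) for 7 over 5 and -1.99 (-2.15 to -1.83) for 8 over 5. Over library 6 it was -2.08 (-2.21 to -1.94) and -2.13 (-2.29 to -1.98). Libraries 5 and 6 differed from each other by 0.15 (0.05 to 0.24, 6 over 5), which is small beside these values.

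Nfatc3, an NFAT protein present in most lymphocytes, followed Nfatc1 by a smaller amount. It was at 40.2 and 42.1 CPM in libraries 5 and 6 and at 24.6 and 25.7 CPM in libraries 7 and 8. The log2 ratio lay between -0.65 (-0.75 to -0.54, 8 over 5) and -0.77 (-0.87 to -0.68, 7 over 6). Nfatc3 (chr8:106058840-106130537, plus strand) overlaps Esrp2 on the other strand in the annotation.

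Nfatc2, a main NFAT protein of resting T cells, was rare here, with 87 to 112 UMIs per library. Its level was 2.03, 2.17, 1.37, and 1.97 CPM, so that only library 7 stood below the others. The log2 ratio was -0.57 (-1.01 to -0.13) for 7 over 5, but -0.04 (-0.48 to 0.39) for 8 over 5 and 0.53 (0.09 to 0.97) for 8 over 7. A difference between library 8 and library 5 or 6 was not detectable at this depth.

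Together the 3 NFAT genes gave 77.8 and 83.7 CPM in libraries 5 and 6 and 35.3 and 36.6 CPM in libraries 7 and 8. Nfatc1 and Nfatc3 were near parity in the former, with 45.8% (44.1 to 47.5) and 51.6% (49.9 to 53.3) of NFAT UMIs in library 5 and 47.1% and 50.3% in library 6. In libraries 7 and 8 Nfatc3 led with 69.6% (67.7 to 71.5) and 70.1% (67.8 to 72.2), and Nfatc1 held 26.5% and 24.6%. Nfatc4 is listed at 0 in every library.

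**Figure D3:**
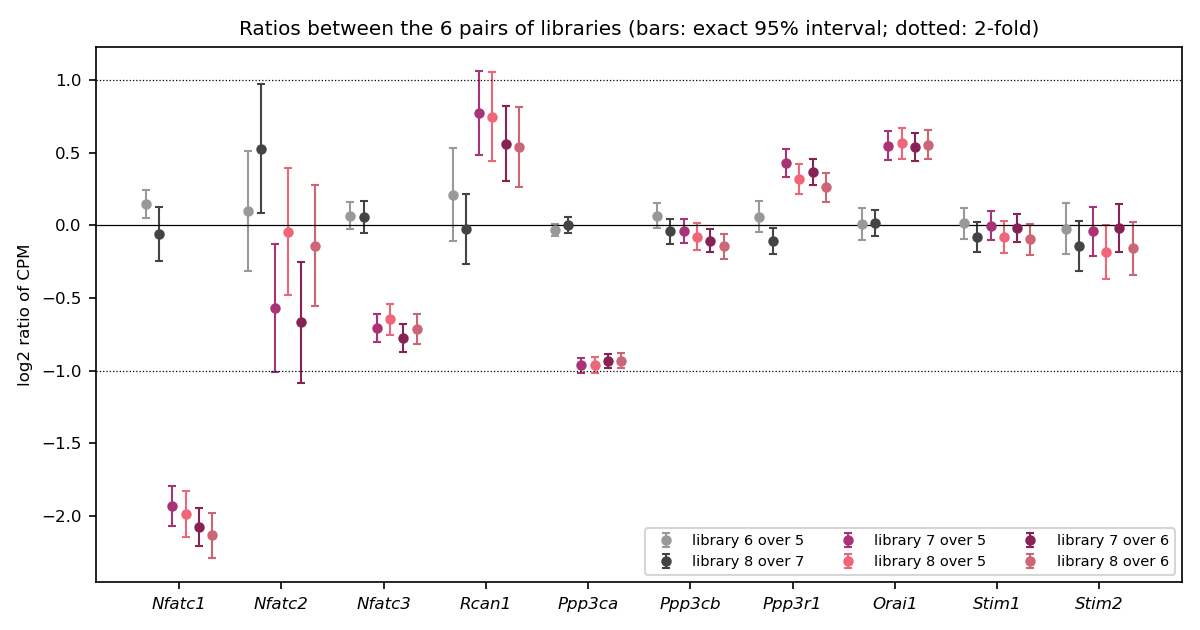
Log2 ratio of CPM for each of the 10 genes in the 6 pairs of libraries; points are ratios, bars exact conditional 95% intervals, dotted lines the 2-fold limit. Only Nfatc1 lies beyond the limit, between -1.93 and -2.13 in the 4 pairs that set library 7 or 8 against 5 or 6.

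Most of the 10 genes stayed within 2-fold. The limit was passed by 1 of the 10, Nfatc1, lower in libraries 7 and 8 than in 5 and 6 in each of the 4 pairs. Among 13033 genes with at least 20 UMIs, 17.7% were at least 2-fold lower in library 7 than in 5, 18.9% in 8 than in 5, 18.2% in 7 than in 6, and 19.3% in 8 than in 6. None of the 10 was at least 2-fold higher, against 17.1%, 15.4%, 16.2%, and 14.8% of all genes. For 6 over 5 and 8 over 7 no member passed 2-fold either way, against 3.25% and 4.45% of all genes. Between the highest and the lowest of the 4 libraries, 1 of the 10 genes and 41.9% of all genes differed by at least 2-fold. The share of 1 in 10 is thus not above the background in any of these comparisons. The interval of the ratio excluded 0 for 7, 6, 8, and 7 of the 10 genes in those 4 pairs, against 77.8%, 75.5%, 78.4%, and 76.0% of all genes. The median log2 ratio of the 10 was -0.04, -0.08, -0.06, and -0.14, against 0.12, 0.07, 0.08, and 0.03 over all genes. For 6 over 5 and 8 over 7 the interval excluded 0 for 1 and 2 of the 10 genes, and no share of all genes is given there. The 6 pairs share libraries, so their values are not independent of each other.

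The rest of the pathway was described with 4 lists. These were chosen with earlier results of these data known, so a list's count beside the share of all genes is no test. Of the 14 other genes of calcium entry and calcium stores, 13 were found and 12 had at least 20 UMIs. At least 2-fold lower were 6 of these in library 7 over 5 and over 6, and 7 in library 8 over 5 and over 6, against 17.7%, 18.2%, 18.9%, and 19.3% of all genes in 7 over 5, 7 over 6, 8 over 5, and 8 over 6. None was 2-fold higher. The median log2 ratio of the list was between -1.04 and -1.14 in these pairs. Atp2a3, the SERCA3 pump that refills the store in blood cells, had the largest difference at 103.5, 106.8, 3.52, and 3.70 CPM, or 30.4-fold between the highest and the lowest. Plcg2, the B cell phospholipase Cγ2 that makes the store-opening messenger, was at 49.8, 50.8, 17.7, and 16.5 CPM. Atp2a2, the common SERCA2 pump, went the other way at 55.8, 57.9, 93.5, and 91.3 CPM. These 3 genes were named for the largest ratios of highest over lowest library among genes of the list that reached 50 CPM. Libraries 5 and 6 did not overlap libraries 7 and 8 for any of them, which that choice favors. The share of all genes that lie apart in this way is not given here.

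The store's release channels, named here like Atp2b1 after their values were seen, were also lower in libraries 7 and 8. Itpr1 was at 27.6, 28.9, 14.7, and 12.8 CPM, Itpr2 at 36.2, 36.1, 12.2, and 12.5 CPM, and Itpr3 at 30.1, 32.4, 6.62, and 6.48 CPM. The plasma membrane pump Atp2b1 was at 125.6, 132.0, 175.6, and 166.4 CPM.

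Of 12 other calcineurin subunits, partners, and calmodulin genes, 10 had at least 20 UMIs, and 2, 2, 1, and 1 of these were at least 2-fold higher in 7 over 5, 8 over 5, 7 over 6, and 8 over 6, against 17.1%, 15.4%, 16.2%, and 14.8% of all genes. None was 2-fold lower. Fkbp1a, the FK506-binding protein, was at 90.7, 90.2, 269.9, and 252.9 CPM. Ppia, the cyclosporin-binding cyclophilin A, was at 1937, 1974, 3578, and 3339 CPM. Both bind a calcineurin inhibitor drug. They too were named for large ratios between libraries, and both were higher in libraries 7 and 8. Rcan3, a relative of Rcan1 named after its values were seen, was at 3.32, 3.00, 5.53, and 4.31 CPM. Rcan2 and Ppp3r2 had no UMI.

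Of 11 other NFAT proteins, NFAT kinases, and regulators, 9 had at least 20 UMIs, and 1 was at least 2-fold lower in each of the 4 pairs, against 17.7%, 18.9%, 18.2%, and 19.3% of all genes. This was Lrrk2, a kinase, at 25.8, 28.9, 6.24, and 6.11 CPM, named after its values were seen. Gsk3b, which phosphorylates NFAT for export from the nucleus, was at 61.0, 67.0, 47.5, and 46.4 CPM. Gsk3a of the same list, named after its values were seen, went the other way at 24.2, 24.1, 38.9, and 40.4 CPM. Csnk1a1, which keeps NFAT phosphorylated at rest, was at 161.5, 172.6, 210.4, and 199.6 CPM. Nfat5, which is not regulated by calcineurin and was also named after its values were seen, was at 49.0, 48.6, 47.2, and 43.6 CPM.

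Genes known to respond to calcineurin and NFAT in lymphocytes had the largest median difference of the 4 lists. Of 16 listed, 11 had at least 20 UMIs, and 8 of the 11 were at least 2-fold higher in each of the 4 pairs, against 17.1%, 15.4%, 16.2%, and 14.8% of all genes. None was 2-fold lower, and the median log2 ratio was between 2.68 and 3.02. Because this list was chosen with earlier results of these data known, the contrast with all genes is no test. Il10, the regulatory cytokine, was at 13.7, 11.1, 255.3, and 252.8 CPM. Il2ra, which encodes CD25, was at 9.23, 9.78, 120.3, and 110.2 CPM. The chemokine gene Ccl4 was at 70.7, 61.2, 322.7, and 304.2 CPM. Egr3 (6.98, 7.01, 5.70, and 7.71 CPM) and Il2 (0.580, 0.407, 0.377, and 0.438 CPM), both classical targets in T cells and named after their values were seen, did not pass 2-fold in these pairs. Ccl3, also named after its values were seen, stayed within 2-fold as well, at 40.8, 42.0, 69.5, and 66.7 CPM. Ifng and Cd40lg had no UMI. Several of these genes also answer to other signals such as PMA and LPS, and which signal they followed was not tested.

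**Figure D4:**
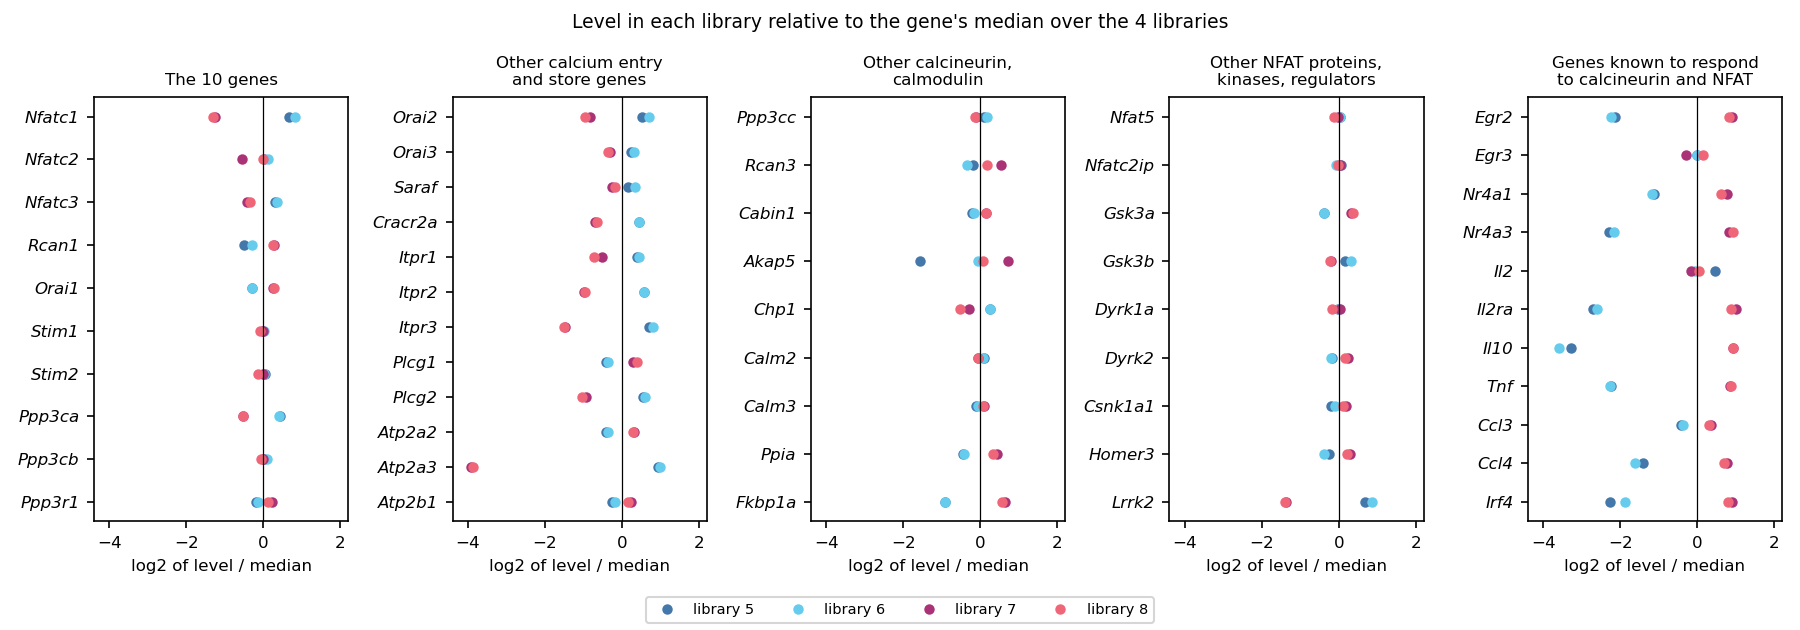
Level of each gene in libraries 5 to 8 as log2 of the level over the gene's median of the 4 libraries (linear axis of log2 units), for the 10 genes and the 4 pathway lists; the genes shown have at least 20 UMIs. The 10 genes lie within a narrow band except Nfatc1, while Il10 ranges from 11.1 to 255.3 CPM and Atp2a3 from 3.52 to 106.8 CPM.

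Cells were clustered without the 10 genes and the pathway lists, and the 7 clusters, A to G, held 7077, 6843, 2147, 886, 802, 528, and 251 cells. Nearly all cells of clusters A, D, and E came from libraries 5 and 6, and nearly all of B, C, and F from libraries 7 and 8. Over clusters, Nfatc1 was at 39.0 CPM in A, 33.0 in D, 34.2 in E, and 37.6 in G, and at 9.13 in B, 8.11 in C, and 11.8 in F. Ppp3ca was at 180.5, 158.0, 173.4, and 133.2 CPM in A, D, E, and G and at 93.8, 85.1, and 89.3 CPM in B, C, and F. Between the highest and the lowest cluster, 3 of the 10 genes differed by at least 2-fold, namely Nfatc1, Ppp3ca, and Ppp3r1, against 67.9% of all genes. This count depended on the clustering, and was 9 at a resolution of 0.5 and 9 with 30 components, where the smallest clusters held 90 and 13 cells. The share of all genes at those settings is not given here, so the rise cannot be read as a trait of the 10 genes. Cluster and library are largely the same split of the cells. The next values therefore compare libraries within cluster G, and those after them compare clusters within a library.

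**Figure D5:**
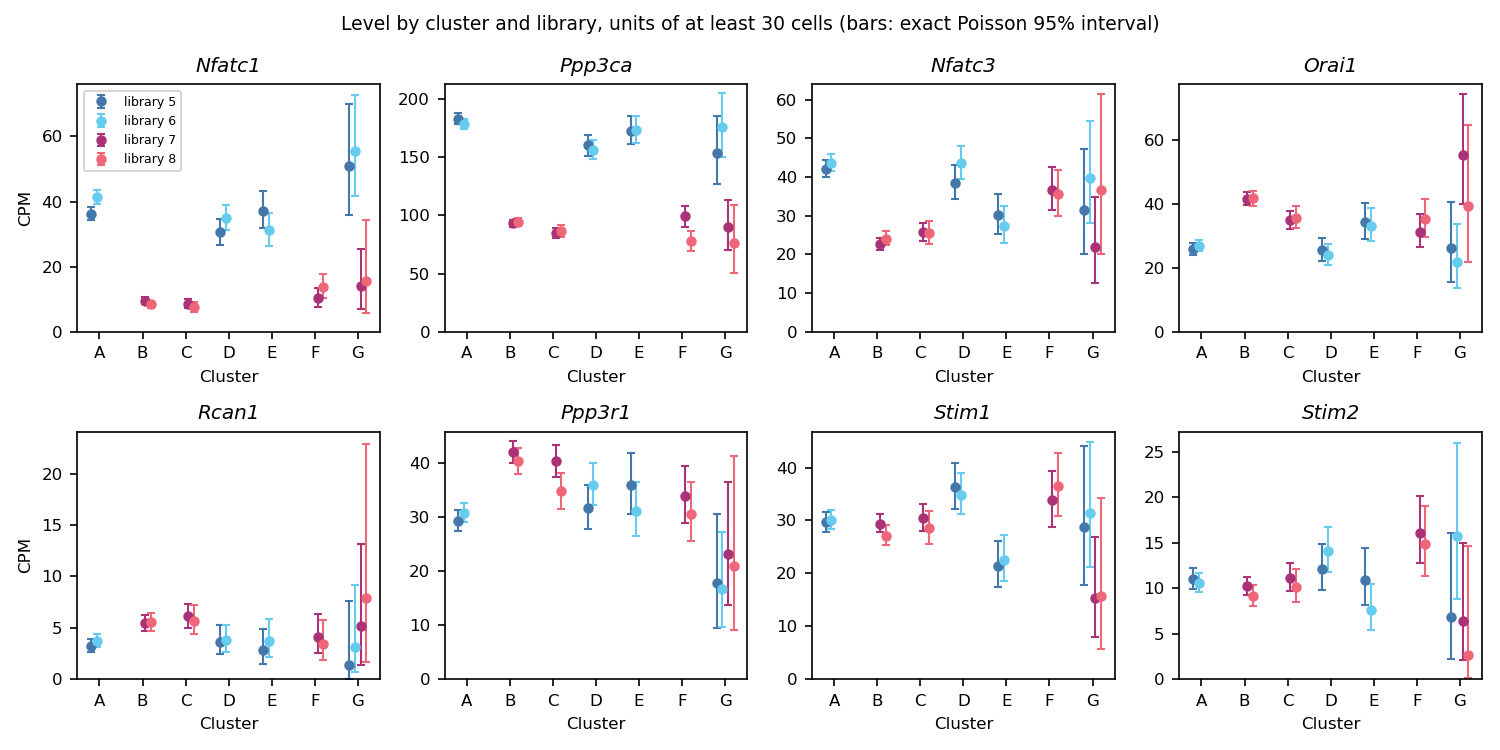
Level (CPM, linear axes from 0 that differ between panels) of 8 of the 10 genes in clusters A to G, with a point for each library with at least 30 cells of the cluster and exact Poisson 95% intervals. In cluster G, which held cells of all 4 libraries, Nfatc1 was 50.8 and 55.5 CPM in libraries 5 and 6 against 14.1 and 15.7 CPM in libraries 7 and 8.

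Cluster G was the exception, with 67, 94, 56, and 34 cells of libraries 5, 6, 7, and 8. It was plasma-like, led by Jchain at 4020 CPM with Mzb1 at 5420 CPM. Within it Nfatc1 was at 50.8 and 55.5 CPM in libraries 5 and 6 and at 14.1 and 15.7 CPM in libraries 7 and 8, from 37, 53, 11, and 6 UMIs. There the log2 ratio was -1.85 (-2.97 to -0.85) for 7 over 5, -1.69 (-3.23 to -0.44) for 8 over 5, -1.97 (-3.06 to -1.02) for 7 over 6, and -1.82 (-3.33 to -0.60) for 8 over 6. Ppp3ca was at 153.8, 175.9, 89.9, and 75.9 CPM, with intervals below 0 in the same 4 pairs. Orai1 was at 26.1, 22.0, 55.2, and 39.3 CPM, and its interval excluded 0 for library 7 (1.08 over library 5 and 1.33 over 6) but not for library 8. In these pairs the interval excluded 0 for 4 of 7, 2 of 7, 5 of 8, and 2 of 7 members with at least 20 UMIs, and for 41.8%, 40.0%, 40.3%, and 36.8% of all genes. Rcan1 gave 1 to 4 UMIs per library there, too few to compare.

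Clusters of one library were compared next. In libraries 5 and 6, cluster E, led by Ccl3 and Ly6k, was below cluster A for Nfatc3 (30.2 against 42.2 CPM in library 5, 27.5 against 43.7 CPM in library 6) and for Stim1 (21.5 against 29.6 CPM, 22.6 against 30.1 CPM), and above it for Orai1 (34.4 against 25.9 CPM, 33.2 against 27.0 CPM). Cluster D, with the cell cycle gene Mki67 at 349.0 CPM, was below cluster A for Nfatc1 (30.5 against 36.3 CPM, 34.9 against 41.3 CPM) and for Ppp3ca (159.9 against 182.8 CPM, 156.0 against 178.5 CPM) and above it for Stim1 and Ppp3cb. Each of these intervals excluded 0 in both libraries, and none of the folds named reached 2. Nfatc2 was at 1.03 CPM in D against 2.39 CPM in A in library 5, from 8 and 76 UMIs (log2 ratio -1.21, -2.47 to -0.16), but in library 6 the interval included 0. Over all 10 genes the interval excluded 0 for 5 and 4 between E and A, against 42.3% and 40.8% of all genes. Between D and A it did so for 5 and 6, against 48.4% and 49.8% of all genes.

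In libraries 7 and 8, cluster F, in which Mki67 was at 326.0 CPM, was above cluster B for Nfatc3 (36.7 against 22.6 CPM in library 7, 35.5 against 24.1 CPM in library 8). It was also above B for Stim2 (16.1 against 10.2 CPM, 14.8 against 9.13 CPM) and below it for Ppp3r1 (33.8 against 42.0 CPM, 30.7 against 40.4 CPM). Cluster C, with the replication gene Mcm3 at 321.0 CPM, was below B for Orai1 (34.9 against 41.7 CPM, 35.8 against 41.7 CPM) and for Ppp3ca (84.5 against 93.1 CPM, 86.1 against 94.4 CPM). These intervals too excluded 0 in both libraries without a 2-fold difference. Over all 10 genes the interval excluded 0 for 4 and 6 between F and B, against 38.1% and 38.4% of all genes, and for 3 and 3 between C and B, against 34.1% and 29.4%. In libraries 6, 7, and 8 the Mki67-high cluster thus had a higher level of Stim2 than the largest cluster of the same library, and in library 5 the interval of that ratio included 0. Clusters were formed from the same cells, so none of these values is a test.

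Cluster G differed from other clusters of its library by more for some members, in pairs chosen after their values were seen. Stim1 was lower in G than in F, at 15.4 against 33.8 CPM in library 7 (12 UMIs in G) and 15.7 against 36.5 CPM in library 8 (6 UMIs in G), with log2 ratios of -1.14 (-2.12 to -0.29) and -1.22 (-2.68 to -0.06). Ppp3r1 was lower in G than in D, at 17.9 against 31.7 CPM in library 5 and 16.8 against 36.0 CPM in library 6, where the log2 ratio was -1.10 (-1.93 to -0.38). Between G and D the interval excluded 0 for 2 of 9 and 3 of 10 members with at least 20 UMIs in libraries 5 and 6, against 32.8% and 36.2% of all genes. Between G and F it did so for 5 of 9 and 1 of 8 members in libraries 7 and 8, against 36.1% and 23.5%.

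Cells were thinned to 4000 UMIs each to compare the share of cells in which a gene was seen, which left out 29, 36, 91, and 55 cells. Nfatc1 was then seen in 12.6% (11.6 to 13.7), 14.6% (13.6 to 15.6), 3.16% (2.72 to 3.66), and 3.12% (2.60 to 3.71) of cells of libraries 5, 6, 7, and 8. Without thinning the shares were 27.6%, 29.9%, 8.95%, and 8.67%. Ppp3ca was seen in 48.6%, 47.4%, 29.1%, and 29.3% of cells (74.4%, 75.4%, 55.4%, and 55.9% unthinned). Orai1 was seen in 10.2%, 10.2%, 14.0%, and 14.0% of cells (22.5%, 23.9%, 33.7%, and 33.8% unthinned). Rcan1 was seen in 1.54%, 1.09%, 2.26%, and 2.05% of cells (3.41%, 4.01%, 5.91%, and 6.07% unthinned). The thinned shares of these genes thus kept the order seen in CPM, except that the Rcan1 shares of libraries 5 and 6 changed places. Among the unthinned shares, those of Ppp3ca in libraries 5 and 6 and of Rcan1 in libraries 7 and 8 changed places. No cell type that lacks these genes was found to set a background.

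Within a library, the variance over the mean of the thinned counts was between 0.965 and 1.22 for the 10 genes, where counts that differ only by sampling give a value near 1, and it was between 3.54 and 4.10 for the more abundant Cd79a. The mean thinned count in library 5 was 0.138 for Nfatc1 and 12.8 for Cd79a. At low means the value lies near 1 even where cells differ. It therefore cannot show whether the 10 genes vary between cells or vary less than Cd79a. The highest value, 1.22, was that of Nfatc1 in library 7, and Ppp3ca was at 1.13, 1.12, 1.11, and 1.17. Across cells of a library, the correlation of the counts of any pair of the 10 genes lay between -0.0432 and 0.0647, which in counts this sparse is no finding.

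Over 16 units of a cluster in a library with at least 30 cells, Nfatc1 and Ppp3ca varied most alike of the pairs that include Nfatc1 (Pearson r = 0.896 on log2(CPM + 1)). Rcan1 and Nfatc1 varied in opposite directions (r = -0.748). The units of one library share its depth and reagents, so these values are descriptions. In units of libraries 5 and 6, Nfatc1 was at least 30.5 CPM and Ppp3ca at least 153.8 CPM. In units of libraries 7 and 8, they were at most 15.7 and 99.0 CPM. An r with Nfatc1 over all 16 units therefore cannot be told apart from this split of the libraries. The r over the units of one library is not given here. Among 4727 genes with at least 20 CPM, those most like Nfatc1 were Arl6ip5 (r = 0.981), Myl12b (0.980), Ly6e (0.980), Laptm5 (0.979), and Tspo (0.978). Those most like Rcan1 were Vps26a (0.899), Tsta3 (0.896), Tmem70 (0.891), Thyn1 (0.890), and Parg (0.888). All units weigh the same in r, and those of cluster G held only 1, 3, 4, and 3 Rcan1 UMIs in libraries 5, 6, 7, and 8. The order of the genes most like Rcan1 is therefore uncertain. Myl12b, for example, was at 156.0, 169.0, 15.0, and 15.5 CPM, and Thyn1 at 13.5, 14.5, 27.3, and 27.7 CPM.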

How the data were processed

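The deposited values are counts of UMIs per gene and cell, which the authors made from Chromium Single Cell 3′ libraries with bcl2fastq and Cell Ranger 3.1.0 on mouse mm10 with Ensembl genes, which were then joined and normalized to each other with its aggr step. The mode of aggr is not given in the sources used here. The authors' later imputation is not in these counts. With 35989 columns, the matrix is longer than the barcode list by 16069. Its last columns were taken as the barcodes in order, since mean expression in windows of 400 columns shifted at the starts this gives for libraries 5 and 7 (percentiles 99.5 and 100 of all columns). The shift was weaker at the starts of libraries 6 and 8 (82.9 and 91.1). Placing the barcodes on the first columns instead gave no start above percentile 84.7. The columns left over were not used here. No doublets were called or removed.

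Of the deposited cells, 559 had fewer than 1000 genes and 1110 had at least 10% mitochondrial UMIs. UMIs were summed per library and given as CPM with exact Poisson intervals, ratios with exact conditional intervals, and shares with Clopper-Pearson intervals, all at 95% (Python 3.11.15, SciPy 1.17.1). The interval code was run on simulated Poisson counts, the model that the intervals assume. That run checks the code and not how well the intervals suit these data. Since barcodes name no sample, the comparison of Bregs-TLR with Bregs-CpG, planned with edgeR for the case that they do, could not be carried out, and no p-value is given. Ratios of the 10 genes were computed for all 6 pairs of libraries. Most counts and medians are given only for the 4 pairs that set library 7 or 8 against 5 or 6. No label supports this split, which was taken from the values, so counts over it are descriptions. Genes with at least 20 UMIs over the 4 libraries (13033) form the background, and 2-fold is the limit for a call. Clusters were formed in Seurat 5.3.0 (R 4.3.3) from 1985 of 2000 variable genes, without the 10 genes and the lists, with 20 components and a resolution of 0.3.

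Named genes were all 10 members, the 3 genes of each list with the largest ratio of highest over lowest library among those that reached 50 CPM, and the 5 genes most like Rcan1 and Nfatc1. Family members are given for shares (Orai2, Orai3, and Ppp3cc) and cell type markers as a check. Others were chosen after their values were seen, and the values of some listed genes are not reported here. The members and lists were chosen with earlier results of these data known. Gene positions come from GENCODE annotation on GRCm38, another release than that of the counting, and promoter sequences from RefSeq (GRCm38.p6). Alternatives covered cell filters, the denominator, TMM (edgeR 4.0.16) and median-of-ratios scaling, weights of cells, thinning, the count filter, the call, leaving out each library, and the clustering.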

Additional observations from a re-analysis of the deposited data

How the results depend on the processing

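Of 480 log2 ratios of the 10 genes under the alternatives, 423 stayed within the reported 95% interval and 57 did not. The sign changed in 34, and in 0 of those whose reported interval excluded 0. The count of genes past 2-fold, 1 as reported for each pair that sets library 7 or 8 against 5 or 6, became 2 in 7 over 5, 8 over 5, and 7 over 6 with TMM scaling and with median-of-ratios scaling, and 2 in all 4 pairs with a denominator without mitochondrial, ribosomal protein, and immunoglobulin genes. The added gene was Ppp3ca, whose log2 ratio was then between -1.01 and -1.16. With cells thinned to 4000 UMIs the count was 2 in 7 over 6, where the added gene was Rcan1 (1.06), and the thinned Rcan1 ratio of 6 over 5 was -0.47 against 0.21. Called at 1.5-fold, 4, 4, 4, and 3 genes passed in 7 over 5, 8 over 5, 7 over 6, and 8 over 6. The share of all genes under these settings and at 1.5-fold is not given here. The changed counts, here and in the next sentence, therefore stand without a background. The count of genes at least 2-fold apart between the highest and the lowest library was 1 as reported and became 2 with that denominator, both scalings, and thinning, and 5 at 1.5-fold; in the leave-one-out fits without each library in turn it was between 1 and 1. TMM scaling moved the median of all genes from 0.12 to 0.00 in 7 over 5, so that Stim1 stood at -0.12 there. That Stim1 value lay outside its reported interval. Without a count filter, 17.2% and 18.6% of all genes passed 2-fold in 6 over 5 and 8 over 7. Between clusters, 3 genes were at least 2-fold apart as reported, and 9 at a resolution of 0.5 and 9 with 30 components, whose smallest clusters held 90 and 13 cells. For those clusterings too the share of all genes is not given here. No paired analysis was possible because the barcodes name no sample, so no replicate number could be tied to a library. Depth limits Rcan1 and Nfatc2 most, with 937 and 380 UMIs in all.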

Other observations

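The libraries, which no label ties to a sample, fell into separate sets for several of the 10 genes. The split was taken from the values, and the share of all genes that lie apart in this way is not given here. The list below therefore cannot be read as a trait of the 10 genes. Libraries 5 and 6 against 7 and 8 lay apart for Nfatc1 (35.6 and 39.5 against 9.37 and 8.999 CPM), Ppp3ca (177.6 and 173.8 against 91.1 and 91.2 CPM), Nfatc3 (40.2 and 42.1 against 24.6 and 25.7 CPM), Rcan1 (3.23 and 3.74 against 5.52 and 5.43 CPM), Orai1 (26.7 and 26.9 against 39.1 and 39.6 CPM), and Ppp3r1 (30.2 and 31.5 against 40.7 and 37.8 CPM). The values of Stim2 (11.2 and 11.0 against 10.9 and 9.85 CPM) and Ppp3cb (44.3 and 46.4 against 43.1 and 41.9 CPM) also did not overlap, but the interval of the ratio included 0 in all 4 of these pairs for Stim2 and in 2 of them for Ppp3cb. The B cell genes Ms4a1 and Cd79b showed the same split by more, at 1499 and 1510 against 32.0 and 37.0 CPM and at 2158 and 2226 against 293.7 and 306.7 CPM. Some genes of the list known to respond to calcineurin and NFAT, picked after their values were seen, were higher in libraries 7 and 8. These were Egr2 (1.36, 1.26, 11.0, and 10.5 CPM), Nr4a1 (2.77, 2.67, 10.2, and 9.22 CPM), Nr4a3 (0.178, 0.194, 1.56, and 1.66 CPM), Irf4 (4.91, 6.35, 43.8, and 40.7 CPM), and Tnf (2.92, 2.89, 24.7, and 25.4 CPM). Egr3 of the same list was not, at 6.98, 7.01, 5.70, and 7.71 CPM. What sets the libraries apart was not tested.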
